A study of Zea mays with 24 samples.

Results

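Leaf transcriptomes of W22 maize seedlings were compared between drought and normal conditions in 4 of the 24 RNA-seq libraries of the series, 2 libraries from drought-stressed and 2 from normally watered plants. The line W22 is an inbred of maize, and the labels give these 4 libraries as wild type, leaf tissue and the V4 seedling stage, with no transgene or mutation. They were picked by title, as the W22 control and W22 stress samples. Leaves of several plants were pooled for each library according to the methods of the study, and no source says that the pools were grown apart, so p-values measure the spread between these pools and nothing wider. At the end the same contrast is set beside that in zmnf-ya1, a mutant in the W22 background with a Mu transposon insertion in the *ZmNF-YA1* gene (a single allele), and in DH4866, a different wild-type inbred line, each also V4 leaf with 2 libraries per condition.

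A leaf that loses water closes its stomata and accumulates abscisic acid (ABA), which acts through soluble receptors, protein phosphatases of the PP2C class and SnRK2 kinases to switch on dehydrins and other late embryogenesis abundant (LEA) proteins, compatible solutes and detoxifying enzymes. Jasmonate and ethylene, better known from wounding and insect attack, also rise in many stressed leaves. In maize, a C4 plant, carbon is first fixed in mesophyll cells by phosphoenolpyruvate carboxylase and released to Rubisco in the bundle sheath, so the leaf is rich in transcripts of both pathways and of the light-harvesting proteins.

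Between 20863134 and 20970657 expected counts were assigned to genes in each library, and the 100 genes with the most counts took 36.0% to 36.3% of them under normal conditions and 38.3% to 38.4% under drought. Levels are given as CPM, counts brought to a common library total after scaling by the trimmed mean of M-values (TMM). Under scaling by library size alone the median log2 fold change was -0.148 over all genes, in place of -0.003. Markers of mesophyll (10 genes) and bundle sheath (8 genes) were above the floor of 3 counts in each library, and none passed the test with edgeR, DESeq2 or limma, although 7 and 8 of them had an unadjusted p below 0.05, as 71.2% of all tested genes did. Of 11 markers of dividing cells 3 were at or below that floor in all 4 libraries, and their summed level was 149 and 156 CPM under normal conditions and 218 and 222 CPM under drought. Among 6 root markers 3 were at that floor and the sum was 692 to 708 CPM against 847 to 929 CPM, while 6 of 11 seed storage genes were at the floor and their sum was 36.2 to 36.9 CPM against 37.4 to 40.8 CPM. In bulk tissue, fewer cells of a type and less RNA per cell cannot be told apart.

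Drought changed 7705 of 24159 tested genes in W22, 4238 (17.5%) upward and 3467 (14.4%) downward, 31.9% in all. A gene was called changed when edgeR's quasi-likelihood test gave a Benjamini-Hochberg adjusted p below 0.05 and the absolute log2 fold change was above 1. These genes were sorted into 47 families and pathways by the protein descriptions in the files and into 30 Gene Ontology (GO) processes, and each group is read below against the 17.5% and 14.4% of all genes. In each group the called genes with the largest rise and the largest fall among those of at least 10 CPM are named, together with the gene that drew the most reads (the highest mean CPM, not corrected for length), and other genes named were chosen after their values were seen. Jasmonate genes, class III peroxidases, protease inhibitors and benzoxazinoid genes, cytosolic ribosomal proteins, LEA proteins, wax and lipid-transfer genes, ethylene genes and glutathione S-transferases were the 8 families in which 44.2% or more of the tested genes rose. Fallen genes made up 42.9% of the ABA synthesis and breakdown list (3 of 7), 34.3% of the cytokinin and gibberellin list, 33.3% of the proline list (1 of 3), 29.9% of the calcium-dependent kinases, 29.0% of the aquaporins and 24.1% of the starch enzymes.

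**Figure D1:**
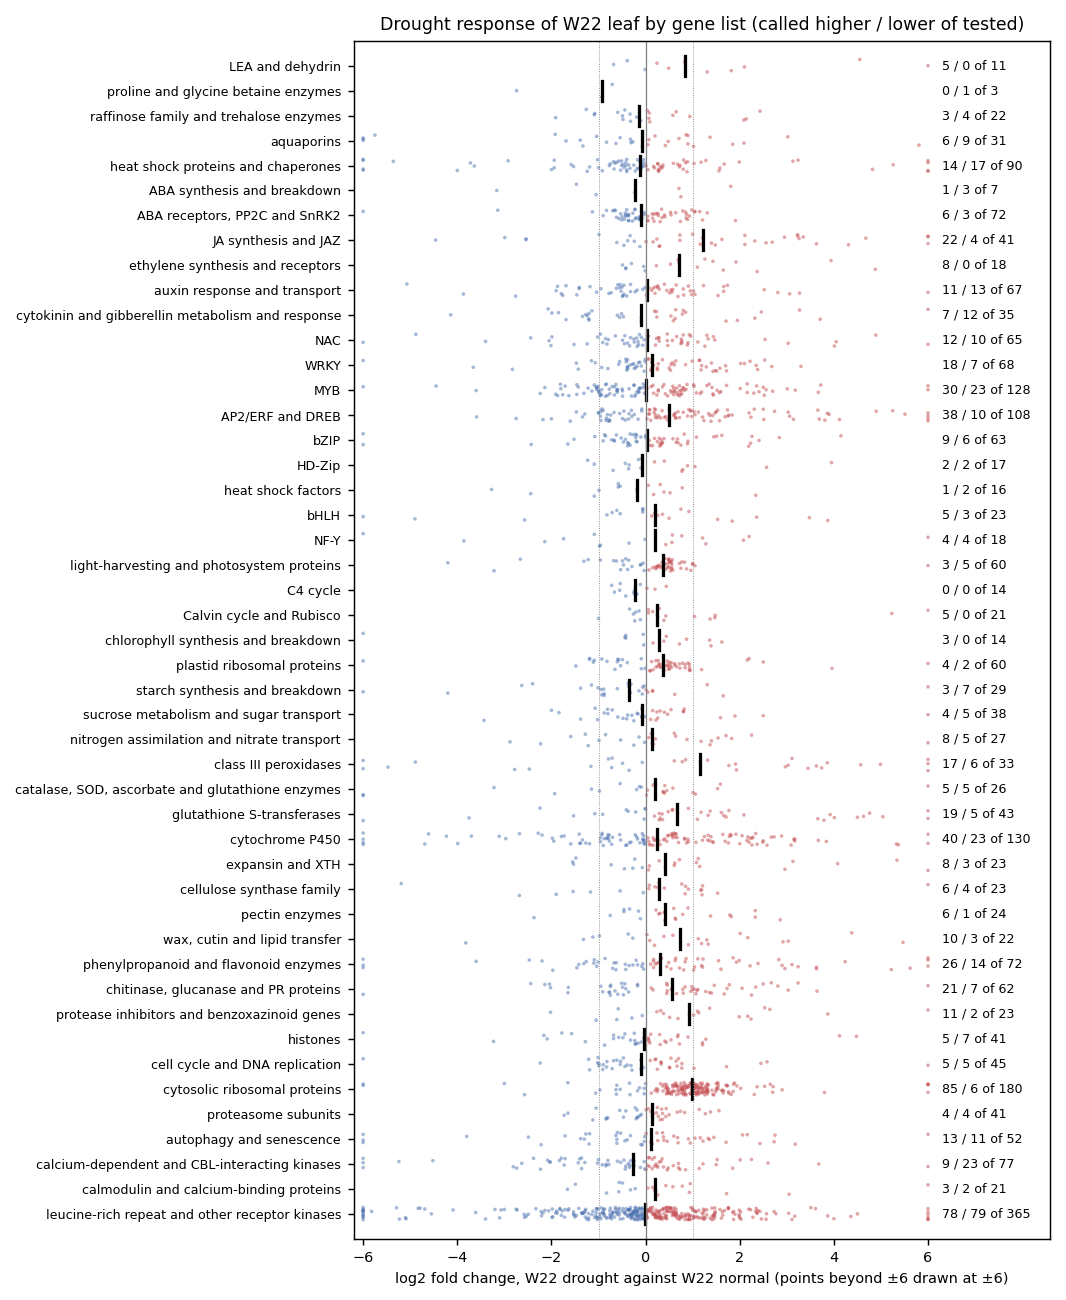
Log2 fold change of W22, drought against normal, for each tested gene (points, red above 0 and blue below) of each gene list, with the median as a black tick, dotted lines at the call limit of -1 and 1, points beyond the axis limits drawn at them, and at the right the numbers of genes called higher and called lower of those tested. The median of the jasmonate genes stands at 1.21 and that of the cytosolic ribosomal proteins at 0.98, while that of the calcium-dependent kinases is -0.26.

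LEA proteins, hydrophilic proteins that shield other proteins and membranes during water loss, had 11 of 22 genes passing the filter on low counts. Of these, 5 rose with edgeR, 4 with DESeq2 and 3 with limma. None fell with any of these methods (1 was lower at an unadjusted p below 0.05). The median log2 fold change was 0.83 beside -0.003 for all genes. The group 3 LEA gene *mlg3* (GRMZM2G096475) was measured at 0.127 and 0.0423 in the normal and 49.0 and 43.1 CPM in the drought libraries. It stood at 3 and 1 counts in the normal libraries and was plain in both drought libraries, a ratio of 544 (95% exact counting interval 212 to 1997). The dehydrin *dhn1* (GRMZM2G079440), also known as *rab17* and a classical ABA-induced gene of maize, was at 2.80 and 2.83 in the normal and 12.5 and 11.7 CPM in the drought libraries. Both drought libraries lay above both normal ones, though the level stayed low (log2 fold change 2.10, SE 0.15, edgeR adjusted p = 3.62e-08). Its protein description in the files names a chloroplast RNA polymerase subunit, and RefSeq gave the dehydrin name. Dehydrin 13 (GRMZM2G169372), with the most reads of the list, was at 128 and 144 in the normal and 159 and 163 CPM in the drought libraries (log2 fold change 0.24, SE 0.066, edgeR adjusted p = 0.0048), a difference that did not reach the 2-fold limit. *Dhn2* (GRMZM2G373522) was at 37.4 and 42.9 against 72.2 and 70.3 CPM and a Lea5-like gene (GRMZM2G099003) at 172 and 186 against 107 and 116 CPM, both short of that limit. The whole list took 0.0606% and 0.0691% of summed FPKM (fragments scaled to transcript length and library total) in the normal libraries and 0.0648% and 0.0669% in the drought libraries, which overlap. Such shares, here and below, are not on the TMM scale of the tests.

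Enzymes of compatible solutes changed in opposite directions. Stachyose synthase (GRMZM2G340656), so described for the enzyme that extends raffinose-family sugars but listed in RefSeq as *AGA1*, the symbol of an alkaline alpha-galactosidase that breaks them down, was at 144 and 148 in the normal and 799.5 and 776 CPM in the drought libraries. Its drought libraries were well above the normal ones and close to each other (log2 fold change 2.43, SE 0.061, edgeR adjusted p = 1.4e-12). A group of 3 enzymes placed by description on the way to raffinose, some picked after their values were seen, fell. Inositol-3-phosphate synthase (GRMZM2G155242), which supplies myo-inositol, was at 2556 and 2509.9 in the normal and 1214 and 1172 CPM in the drought libraries (log2 fold change -1.09, SE 0.050, edgeR adjusted p = 4.22e-10). Galactinol synthase 2 (GRMZM5G872256), which makes the galactosyl donor, was at 1291 and 1309.9 against 547 and 538 CPM (log2 fold change -1.26, SE 0.051, edgeR adjusted p = 1.18e-10). A putative galactinol-sucrose galactosyltransferase (GRMZM2G077181), by that description alone the raffinose-forming step, was at 61.7 and 59.8 against 16.5 and 15.7 CPM (log2 fold change -1.91, SE 0.092, edgeR adjusted p = 6.85e-10). In none of these genes did the groups overlap. Trehalose-6-phosphate synthase *TPS7* (GRMZM2G019183) was higher, at 10.4 and 10.6 against 42.5 and 47.4 CPM (log2 fold change 2.09, SE 0.083, edgeR adjusted p = 1.07e-10). Over the 22 tested genes of raffinose and trehalose metabolism 3 rose and 4 fell (median -0.15). For proline, delta-pyrroline-5-carboxylate synthetase (GRMZM2G375504), the committed step of its synthesis, was at 10.3 and 10.1 in the normal and 6.75 and 5.70 CPM in the drought libraries (log2 fold change -0.71, SE 0.12, edgeR adjusted p = 0.00011). Proline oxidase (GRMZM2G053720), which breaks proline down, was at 176 and 171 against 97.2 and 85.2 CPM (log2 fold change -0.93, SE 0.085, edgeR adjusted p = 4.45e-07). A second oxidase gene (GRMZM2G117956) fell from a low level. It was at 1.31 and 1.56 against 0.234 and 0.185 CPM (log2 fold change -2.74, SE 0.41, edgeR adjusted p = 4.62e-05). The first oxidase gene was within the 2-fold limit and passed it with library size alone (-1.07), with limma (-1.05) or without drought library 1 (-1.02), so that 2 proline genes fell without that library.

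Aquaporins, the membrane channels for water, diverged within one subfamily. *PIP2-4* (GRMZM2G154628) was at 21.8 and 22.2 in the normal and 179 and 177 CPM in the drought libraries (log2 fold change 3.02, SE 0.070, edgeR adjusted p = 6.91e-13). *PIP2-3* (GRMZM2G081192) was at 112 and 114 against 497 and 469.7 CPM (log2 fold change 2.09, SE 0.068, edgeR adjusted p = 1.45e-11). *PIP2-5* (GRMZM2G178693), another plasma membrane channel of the PIP2 type, was at 179.7 and 161 in the normal and 3.28 and 3.06 CPM in the drought libraries (log2 fold change -5.75, SE 0.13, edgeR adjusted p = 5.02e-13). The 2 drought libraries of *PIP2-5* were thus near absence and far from both normal libraries. *PIP1-1* (GRMZM2G174807), the aquaporin with the most reads, was at 2205 and 2132 against 1073 and 1033 CPM (log2 fold change -1.04, SE 0.069, edgeR adjusted p = 1.6e-08). A *PIP1-3/1-4* gene (GRMZM2G392975) was at 594 and 559.9 against 156 and 149 CPM (log2 fold change -1.92, SE 0.068, edgeR adjusted p = 3.51e-11). The tonoplast channel *TIP2-1* (GRMZM2G027098) was at 182 and 177 against 71.0 and 72.3 CPM (log2 fold change -1.33, SE 0.077, edgeR adjusted p = 4.22e-09). Of 31 tested aquaporins 6 rose and 9 fell (median -0.07), and the family took 0.745% and 0.709% in the normal and 0.456% and 0.444% in the drought libraries of summed FPKM.

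**Figure D2:**
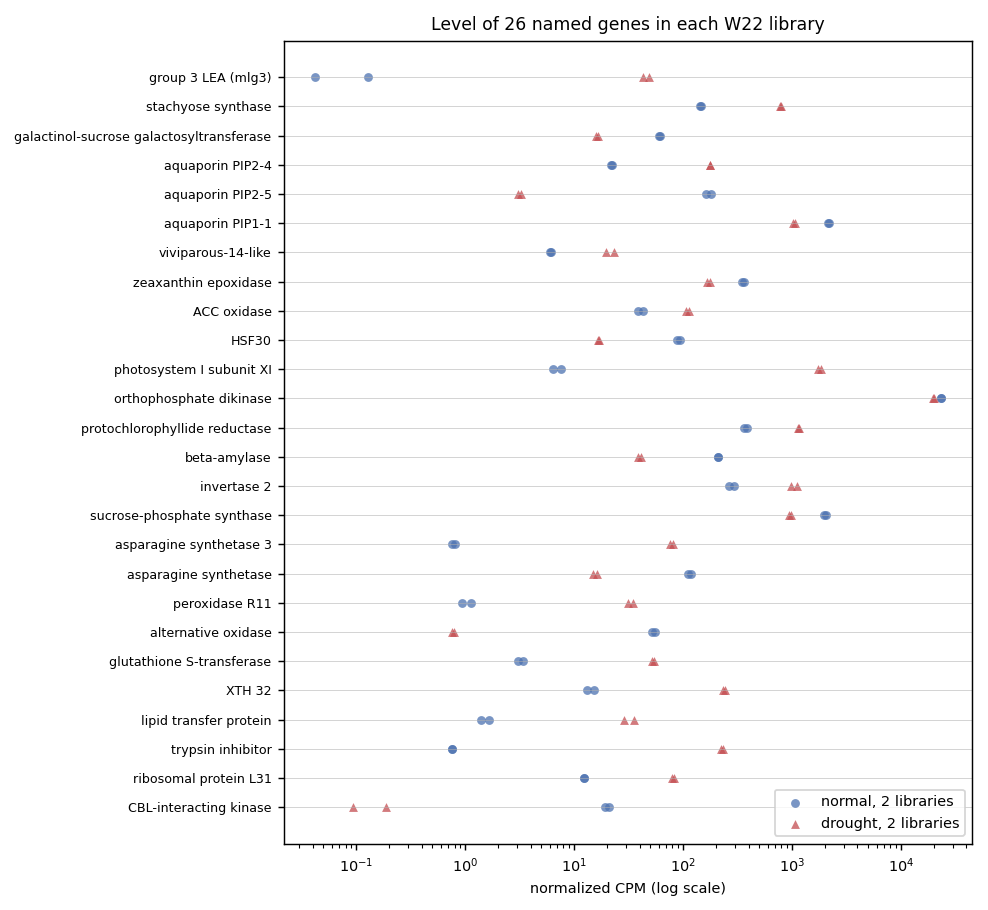
Normalized CPM (log axis) of 26 named genes in each W22 library, blue circles for the 2 normal and red triangles for the 2 drought libraries. In each gene shown the libraries of a condition sit together and apart from the other condition, from the near-absent *mlg3* of normal leaves to orthophosphate dikinase between 19858 and 23448 CPM, whose shift is small.

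Heat shock proteins and chaperones did not move one way, with 14 of 90 risen and 17 fallen (median -0.11). A class II small heat shock protein of 17.0 kDa (GRMZM5G899188) was at 24.6 and 29.1 in the normal and 0 and 0 CPM in the drought libraries. No count of it was present in either drought library, and against a floor of 3 counts per library it was at least 192-fold lower. A dnaJ chaperone (GRMZM2G433854), a co-chaperone of HSP70, showed the reverse, with 0 and 0 in the normal and 43.9 and 44.6 CPM in the drought libraries, at least 349-fold higher. Heat shock cognate 70 (GRMZM2G428391), with the most reads of the list, was at 1539.9 and 1492 against 1089 and 1041 CPM (log2 fold change -0.51, SE 0.050, edgeR adjusted p = 8.31e-07). Heat shock factors, their transcriptional activators, had 16 tested genes with 1 risen and 2 fallen (median -0.18), none risen with DESeq2, limma or without normal library 1, and 4 fallen with library size alone. *HSF30* (GRMZM2G010871) was at 87.7 and 94.8 in the normal and 16.5 and 17.1 CPM in the drought libraries, with no overlap (log2 fold change -2.44, SE 0.070, edgeR adjusted p = 4.85e-12), while the second *HSF30* gene (GRMZM2G132971) was at 103.9 and 105 against 93.1 and 91.2 CPM (log2 fold change -0.18, SE 0.059, edgeR adjusted p = 0.0163).

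In the ABA pathway the synthesis genes were split. A viviparous-14 gene (GRMZM2G417954), coding for the carotenoid-cleaving step that limits ABA synthesis, was at 6.19 and 6.01 in the normal and 23.2 and 19.5 CPM in the drought libraries (log2 fold change 1.81, SE 0.11, edgeR adjusted p = 8.72e-09). *Vp14* itself (GRMZM2G014392) was at 19.6 and 19.8 in the normal and 35.9 and 30.6 CPM in the drought libraries (log2 fold change 0.75, SE 0.086, edgeR adjusted p = 4.05e-06), above the normal libraries in both drought libraries and below the 2-fold limit. Zeaxanthin epoxidase (GRMZM2G127139), an earlier step in the plastid, was at 346 and 364 against 168 and 177 CPM (log2 fold change -1.05, SE 0.060, edgeR adjusted p = 4.01e-09). A 9-cis-epoxycarotenoid dioxygenase (GRMZM5G838285) was at 10.8 and 11.1 against 4.22 and 3.70 CPM (log2 fold change -1.47, SE 0.13, edgeR adjusted p = 3.02e-07). Both of these were lower in each drought library than in either normal library. Of the 7 tested genes of ABA synthesis and breakdown 1 rose and 3 fell (median -0.23). The lowest log2 fold change of the list was -3.16, in a gene not named here. As the list pools synthesis and breakdown genes, its count of falls is not a measure of synthesis alone. Of 72 receptor, PP2C and SnRK2 genes 6 rose (8.33%) and 3 fell (4.17%, median -0.10). Among them a PP2C (GRMZM2G010490), a negative regulator of ABA signalling by its class, was at 30.8 and 31.5 in the normal and 71.0 and 73.2 CPM in the drought libraries (log2 fold change 1.21, SE 0.064, edgeR adjusted p = 1.8e-09). Another PP2C (GRMZM2G180471) was at 18.3 and 20.9 against 9.19 and 8.66 CPM (log2 fold change -1.13, SE 0.11, edgeR adjusted p = 5.89e-07). The one with the most reads (GRMZM2G166297) was at 108 and 117 against 204 and 201 CPM (log2 fold change 0.85, SE 0.066, edgeR adjusted p = 9e-08).

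Jasmonate genes formed the group with the highest share of risen members, 22 of 41 tested (53.7%) with 4 fallen and a median of 1.21. The pathway starts with lipoxygenases, which oxygenate linolenic acid. *Lox10* (GRMZM2G015419), which makes green leaf volatiles in maize and had the most reads of the list, was at 5257 and 5407 in the normal and 12432 and 12409 CPM in the drought libraries (log2 fold change 1.22, SE 0.045, edgeR adjusted p = 5.2e-11). *Lox6* (GRMZM2G040095) was at 384 and 397 against 882 and 859 CPM (log2 fold change 1.16, SE 0.057, edgeR adjusted p = 9e-10). *Lox3* (GRMZM2G109130), a 9-lipoxygenase outside jasmonate synthesis proper, was at 93.3 and 97.7 in the normal and 4.64 and 4.03 CPM in the drought libraries, lower in both drought libraries (log2 fold change -4.46, SE 0.086, edgeR adjusted p = 1.42e-13). *Lox1* (GRMZM2G156861) was at 6.74 and 6.51 against 51.4 and 51.3 CPM, higher in both (log2 fold change 2.95, SE 0.082, edgeR adjusted p = 3.6e-12). The next step, allene oxide synthase *aos1* (GRMZM2G067225), found through its GO fatty acid term, was at 35.5 and 34.6 in the normal and 276 and 282 CPM in the drought libraries (log2 fold change 2.99, SE 0.062, edgeR adjusted p = 2.6e-13). Allene oxide cyclase *aoc1* (GRMZM2G077316) was at 5.42 and 5.71 against 35.3 and 36.7 CPM (log2 fold change 2.69, SE 0.085, edgeR adjusted p = 1.24e-11). The reductase *opr6* (GRMZM2G068947), listed by its annotation, was at 34.5 and 36.2 against 96.0 and 90.4 CPM (log2 fold change 1.40, SE 0.063, edgeR adjusted p = 3.8e-10). Which of the named lipoxygenases, and whether *opr6*, serve jasmonate synthesis was not tested. Jasmonate O-methyltransferase (GRMZM2G050307), which forms volatile methyl jasmonate, was at 20.05 and 21.8 in the normal and 253 and 264 CPM in the drought libraries. This was the largest rise of the list by the naming rule, with close replicates (log2 fold change 3.63, SE 0.070, edgeR adjusted p = 1.42e-13).

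Several of the risen genes code for JAZ proteins, repressors of the jasmonate pathway with a TIFY motif. *TIFY4* (GRMZM2G445634) was at 9.54 and 9.94 in the normal and 107 and 75.3 CPM in the drought libraries, and its drought libraries differed from each other more than most (log2 fold change 3.23, SE 0.21, edgeR adjusted p = 1.48e-08). *TIFY28* (GRMZM2G036351) was at 11.4 and 11.6 against 52.5 and 46.5 CPM (log2 fold change 2.11, SE 0.11, edgeR adjusted p = 1.17e-09). A TIFY gene (GRMZM2G338829) had 0 counts in both normal libraries and 12.8 and 12.5 CPM in the drought libraries, at least 99.3-fold higher. A pair of TIFY genes (GRMZM2G110131 and GRMZM2G122160) carried identical values, 2.204 and 2.199 against 0.422 and 0.324 CPM, as near-identical copies do when reads are divided between them, so their 2 falls are uncertain. Jasmonate synthesis and JAZ genes together took 0.379% and 0.389% in the normal and 0.777% and 0.775% in the drought libraries of summed FPKM, without overlap. This share mostly follows *lox10*, with a mean of 2094 FPKM in the normal and 4370 FPKM in the drought libraries. It is therefore not a measure of the list as a whole.

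Ethylene genes showed 8 of 18 risen with edgeR, 7 with DESeq2 and 5 with limma (median 0.70). None fell with any of these methods, with 4 lower at an unadjusted p below 0.05. The risen genes were mostly ACC oxidases, which perform the last step of ethylene synthesis. One of them (GRMZM2G166639) was at 38.6 and 42.7 in the normal and 106 and 113 CPM in the drought libraries (log2 fold change 1.43, SE 0.070, edgeR adjusted p = 8.33e-10). *ACO31* (GRMZM2G072529) was at 29.2 and 32.4 against 66.1 and 65.9 CPM (log2 fold change 1.10, SE 0.072, edgeR adjusted p = 1.53e-08). The ACC oxidase with the most reads (GRMZM2G144668) was at 208 and 189 against 161 and 162 CPM (log2 fold change -0.30, SE 0.083, edgeR adjusted p = 0.00596). The receptor *ETR2* (GRMZM2G420801) was at 5.68 and 6.51 against 10.8 and 8.85 CPM (log2 fold change 0.69, SE 0.12, edgeR adjusted p = 0.00022), and like the preceding gene was within the 2-fold limit. The ACC synthase *acs7* (GRMZM5G894619), the rate-limiting step, rose from a low level, at 2.08 and 1.31 against 3.94 and 4.17 CPM (log2 fold change 1.26, SE 0.21, edgeR adjusted p = 0.000124). Genes of the growth hormones were split. A gibberellin 2-beta-dioxygenase (GRMZM2G051619), which inactivates gibberellin, was at 9.20 and 9.60 in the normal and 47.8 and 46.0 CPM in the drought libraries (log2 fold change 2.32, SE 0.087, edgeR adjusted p = 6.18e-11), and cytokinin oxidase 3 (GRMZM2G167220), which degrades cytokinin, at 41.0 and 35.9 against 10.8 and 10.5 CPM (log2 fold change -1.85, SE 0.087, edgeR adjusted p = 5.52e-10). In the cytokinin and gibberellin list 7 of 35 rose and 12 fell (median -0.09). Of 67 auxin genes 11 rose and 13 fell, and the median of 0.02 turned to -0.12 with library size alone. The Aux/IAA gene *IAA24* (GRMZM2G115357), a repressor of auxin response, was at 8.82 and 7.61 against 25.98 and 26.1 CPM (log2 fold change 1.66, SE 0.10, edgeR adjusted p = 1.03e-08). An auxin efflux carrier (GRMZM2G074267) was at 18.4 and 18.6 against 6.05 and 4.68 CPM (log2 fold change -1.79, SE 0.12, edgeR adjusted p = 1.79e-08).

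Among transcription factors the AP2/ERF family, which includes the DREB factors of dehydration response, had 38 of 108 tested genes risen (35.2%) and 10 fallen, 5 without normal library 1, and a median of 0.50. *EREB34* (GRMZM5G846057) was at 6.70 and 6.05 in the normal and 33.6 and 29.6 CPM in the drought libraries (log2 fold change 2.31, SE 0.12, edgeR adjusted p = 2.23e-09). An ABI4-like member (GRMZM2G171569) was at 219.9 and 187 against 107 and 95.3 CPM (log2 fold change -1.0, SE 0.12, edgeR adjusted p = 4.48e-06), a fall that missed the limit without drought library 2 (-0.92) or normal library 1 (-0.88). The member with the most reads (GRMZM2G029323) was at 252 and 246 against 185 and 169 CPM (log2 fold change -0.49, SE 0.059, edgeR adjusted p = 5.89e-06). WRKY factors, known from defence, had 18 of 68 risen and 7 fallen, with a median of 0.13 that turned to -0.02 with library size alone. The WRKY gene with the most reads, GRMZM2G120320, was at 48.6 and 45.8 in the normal and 155 and 152 CPM in the drought libraries (log2 fold change 1.70, SE 0.070, edgeR adjusted p = 1.62e-10), and GRMZM2G158328 at 5.81 and 5.92 against 23.8 and 23.9 CPM (log2 fold change 2.02, SE 0.100, edgeR adjusted p = 9.1e-10). In both the drought libraries lay apart from and above the normal ones. NAC factors were balanced, 12 risen and 10 fallen of 65, and their median of 0.04 turned to -0.10 with library size alone. *SNAC1* (GRMZM2G347043), with the most reads and a homolog of a stress-responsive NAC of rice, was at 176 and 166 against 303 and 293 CPM (log2 fold change 0.80, SE 0.067, edgeR adjusted p = 1.89e-07), short of the limit. A NAC gene (GRMZM2G018553) with 0 counts in the normal libraries was at 51.7 and 28.1 CPM under drought, at least 314-fold higher, with the 2 drought libraries apart from each other. The named fall (GRMZM2G166721), at 17.5 and 17.2 against 8.82 and 8.29 CPM, was -1.02 in log2 and -0.97 without drought library 2.

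MYB genes, which include regulators of phenylpropanoids and epidermal traits, had 30 of 128 risen and 23 fallen (median 0.01, -0.13 with library size alone). MYB gene GRMZM2G055158 was at 3.26 and 2.83 in the normal and 40.3 and 37.3 CPM in the drought libraries (log2 fold change 3.67, SE 0.11, edgeR adjusted p = 7.82e-12). A MYB306-like gene (GRMZM2G045748) was at 17.0 and 17.3 against 3.24 and 3.98 CPM (log2 fold change -2.24, SE 0.14, edgeR adjusted p = 7.95e-09). The bZIP list, the class of ABA-response factors, had 9 of 63 risen and 6 fallen (median 0.04, -0.10 with library size alone). *BZIP1* (GRMZM2G117851) was at 3.14 and 3.59 in the normal and 18.2 and 17.6 CPM in the drought libraries (log2 fold change 2.41, SE 0.11, edgeR adjusted p = 5.32e-10). An HBP-1a-like gene (GRMZM2G019106) was at 18.6 and 17.8 against 3.19 and 3.57 CPM (log2 fold change -2.43, SE 0.12, edgeR adjusted p = 6.67e-10). *MYC2a* (GRMZM2G001930), a bHLH factor at the head of jasmonate responses, had the most reads of the bHLH genes. It was at 37.0 and 33.7 in the normal and 133 and 119 CPM in the drought libraries (log2 fold change 1.84, SE 0.085, edgeR adjusted p = 4.79e-10), without overlap. *BHLH116* (GRMZM2G042895) was at 10.6 and 11.7 in the normal and 126 and 122 CPM in the drought libraries (log2 fold change 3.48, SE 0.071, edgeR adjusted p = 2.36e-13), while another HLH gene (GRMZM2G058451) had 21.1 and 23.6 CPM under normal conditions and no count under drought, at least 159.9-fold lower. Of the 23 bHLH genes 5 rose and 3 fell (median 0.19). In the HD-Zip class 2 of 17 rose and 2 fell, and the falls were not held without any 1 of the libraries, where 0 or 1 were called lower, nor with DESeq2 or a replicate block.

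NF-Y genes encode the subunits of a trimeric CCAAT-binding factor, and 18 were tested, of which 4 rose and 4 fell (median 0.21). The risen genes were 4 B subunits. The B-3-like gene GRMZM2G444073 was at 4.24 and 4.27 in the normal and 20.1 and 19.0 CPM in the drought libraries (log2 fold change 2.2, SE 0.11, edgeR adjusted p = 9.96e-10), GRMZM2G180947 at 4.96 and 5.12 against 23.1 and 19.7 CPM (log2 fold change 2.08, SE 0.12, edgeR adjusted p = 3.72e-09) and GRMZM2G384528 at 17.7 and 20.9 against 45.2 and 43.9 CPM (log2 fold change 1.21, SE 0.084, edgeR adjusted p = 2.92e-08). An A subunit (GRMZM2G165488), *ZmNF-YA10* in the naming of the study and *NF-YA11* in that of RefSeq, was at 15.5 and 15.0 in the normal and 0.938 and 1.16 CPM in the drought libraries, lower in both drought libraries (log2 fold change -3.86, SE 0.15, edgeR adjusted p = 7.84e-11). *ZmNF-YA1* (GRMZM2G000686) was at 11.8 and 12.6 against 5.67 and 6.72 CPM (log2 fold change -0.98, SE 0.11, edgeR adjusted p = 4.34e-06), just within the limit, and passed it with library size alone (-1.12), without drought library 2 (-1.10) or without normal library 1 (-1.03). The C subunit *ZmNF-YC17* (GRMZM2G311316) was at 5.42 and 5.16 against 1.03 and 2.13 CPM (log2 fold change -1.74, SE 0.26, edgeR adjusted p = 5.32e-05). *ZmNF-YA7* (GRMZM2G040349) was at 2.16 and 1.99 against 1.45 and 1.81 CPM (log2 fold change -0.35, SE 0.24, edgeR adjusted p = 0.217). The C subunit with the most reads (GRMZM2G089812) was at 139.6 and 147 against 209.8 and 212 CPM (log2 fold change 0.56, SE 0.059, edgeR adjusted p = 1.61e-06).

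Photosynthesis genes differed by list in the share of transcripts they held. Of 60 tested light-harvesting and photosystem genes 3 rose, 1 with library size alone, and 5 fell, with a median of 0.36. They took 15.2% and 15.2% in the normal and 17.4% and 17.4% in the drought libraries of summed FPKM, without overlap. Within the list single genes moved far. Photosystem I subunit XI (GRMZM2G094224), a core subunit of that complex, was at 7.54 and 6.47 in the normal and 1834 and 1751 CPM in the drought libraries (log2 fold change 8.0, SE 0.11, edgeR adjusted p = 2.41e-14). A chlorophyll a-b binding protein 2 gene (AC208915.3_FG010), of the antenna, was at 1664 and 1698 in the normal and 179 and 182 CPM in the drought libraries (log2 fold change -3.22, SE 0.11, edgeR adjusted p = 2.79e-11). Both shifts were far beyond the spread of the replicates, and light-harvesting genes have close copies between which reads could be divided. *Lhcb6* (GRMZM2G092427), a minor antenna protein of photosystem II, was at 2063 and 2004 against 4252 and 4199 CPM (log2 fold change 1.05, SE 0.059, edgeR adjusted p = 3.21e-09). The antenna gene with the most reads (GRMZM2G018627) was at 8349.9 and 8096 against 12079 and 11829 CPM (log2 fold change 0.54, SE 0.053, edgeR adjusted p = 9.41e-07).

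C4 cycle genes did not pass in either direction, 0 of 14 with edgeR, DESeq2 or limma, though 2 were higher and 9 lower at an unadjusted p below 0.05, with a median of -0.23. Their share was 4.58% and 4.52% in the normal and 3.32% and 3.35% in the drought libraries of summed FPKM. As shares are not on the TMM scale, this drop cannot be read as a fold change. Mesophyll markers took 3.71% and 3.68% against 2.73% and 2.76% of summed FPKM, but summed to 48277 and 47925 against 42370 and 41901 CPM. Orthophosphate dikinase (GRMZM2G306345), which regenerates the acceptor of carbon, was at 23448 and 23422 in the normal and 20302 and 19858 CPM in the drought libraries (log2 fold change -0.22, SE 0.041, edgeR adjusted p = 0.000275). Phosphoenolpyruvate carboxylase (GRMZM2G083841) was at 21603 and 21286 against 19009.9 and 18973 CPM (log2 fold change -0.18, SE 0.039, edgeR adjusted p = 0.00118). The carboxykinase (GRMZM2G001696) was at 6763 and 6529.7 against 4999 and 4958 CPM (log2 fold change -0.42, SE 0.044, edgeR adjusted p = 1.75e-06). These groups did not overlap, but the differences were small. In the Calvin cycle 5 of 21 rose with edgeR, 5 with DESeq2 and 3 with limma (median 0.25). None fell with any of these methods, although 3 were lower at an unadjusted p below 0.05. They took 1.504% and 1.49% in the normal and 1.44% and 1.48% in the drought libraries of summed FPKM. A plastid glyceraldehyde-3-phosphate dehydrogenase A gene (GRMZM5G821433) was at 1.48 and 0.846 in the normal and 82.9 and 70.7 CPM in the drought libraries (log2 fold change 6.04, SE 0.16, edgeR adjusted p = 2.45e-12), from near absence to a moderate level. The Rubisco small subunit (GRMZM2G098520) was at 3172 and 2950.3 against 4173 and 4051 CPM (log2 fold change 0.43, SE 0.071, edgeR adjusted p = 0.000121). Chlorophyll enzymes had 3 of 14 risen and none fallen with edgeR, DESeq2 or limma (median 0.28), with 4 lower at an unadjusted p below 0.05 and 1 fallen with library size alone, a replicate block or without normal library 1. Protochlorophyllide reductase *pcr1* (GRMZM2G084958), the light-dependent step of synthesis, was at 385 and 367 in the normal and 1174 and 1142 CPM in the drought libraries (log2 fold change 1.62, SE 0.061, edgeR adjusted p = 6.03e-11). The stay-green gene *SGR1* (GRMZM2G103881), which takes part in chlorophyll breakdown, was at 27.8 and 28.1 against 73.5 and 70.0 CPM (log2 fold change 1.36, SE 0.083, edgeR adjusted p = 7.95e-09). So a gene of synthesis and a gene of breakdown both rose. Of 60 plastid ribosomal proteins 4 rose and 2 fell, 5 without drought library 2 or without normal library 1, with a median of 0.36.

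**Figure D3:**
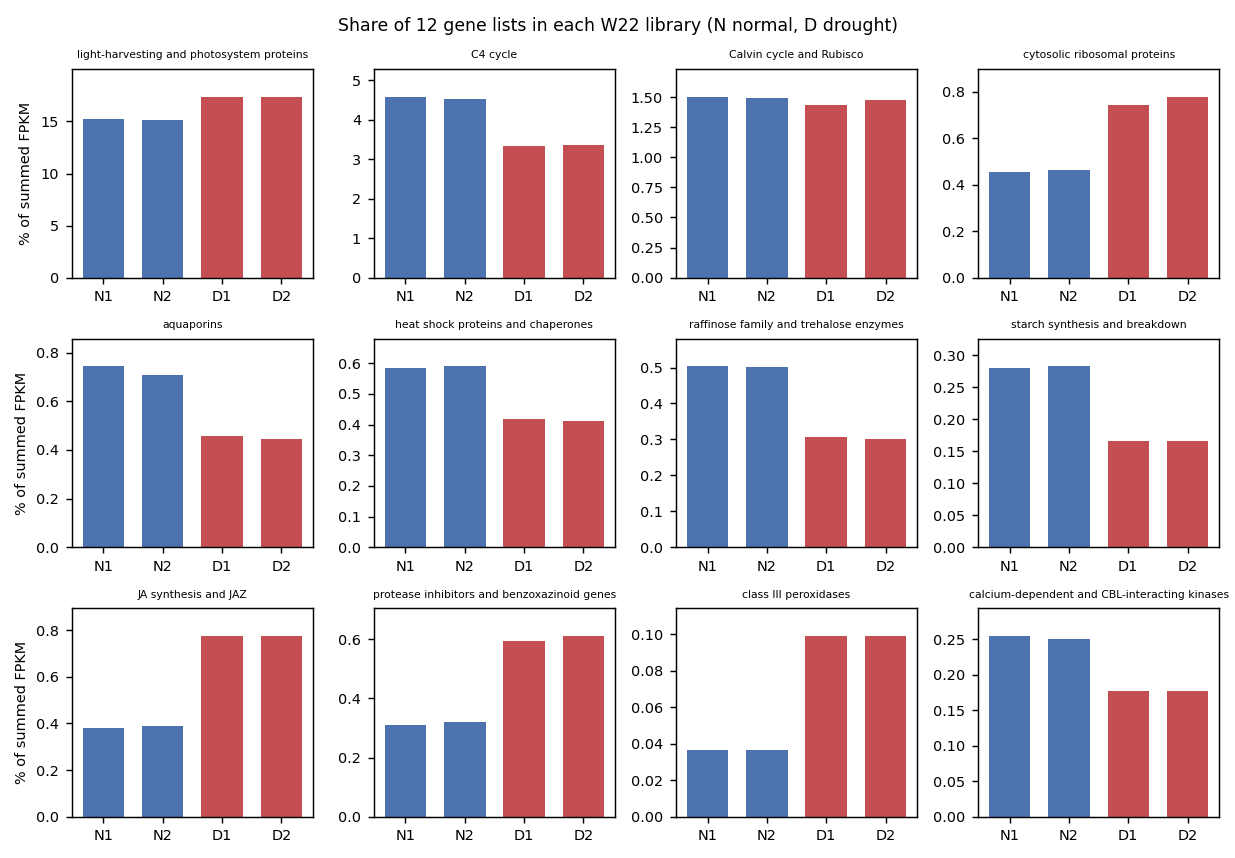
Percent of summed FPKM taken by each of 12 gene lists in the 4 W22 libraries (N1 and N2 normal, blue; D1 and D2 drought, red), each panel from 0 on its own axis. Light-harvesting and photosystem genes stand at 15.2% in both normal and 17.4% in both drought libraries, and C4 cycle genes at 4.58% and 4.52% against 3.32% and 3.35%. These shares are not on the TMM scale of the tests.

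Among starch genes 7 fell and 3 rose of 29 (median -0.36), and 12 fell with library size alone. A beta-amylase (GRMZM5G803981), which releases maltose from starch, was at 211 and 209.6 in the normal and 40.8 and 38.7 CPM in the drought libraries (log2 fold change -2.40, SE 0.077, edgeR adjusted p = 1.42e-11). The plastid ADP-glucose pyrophosphorylase large subunit (GRMZM2G391936), the first committed step of starch synthesis, was at 354 and 372 against 161 and 166 CPM (log2 fold change -1.15, SE 0.064, edgeR adjusted p = 3.01e-09). *GBSSIIa* (GRMZM2G008263), a granule-bound starch synthase, was at 637 and 629 against 332 and 333 CPM (log2 fold change -0.93, SE 0.051, edgeR adjusted p = 2.46e-09), within the limit except with library size alone (-1.08) or limma (-1.07). A second beta-amylase (GRMZM2G446515) rose, at 5.68 and 5.92 against 13.8 and 14.9 CPM (log2 fold change 1.31, SE 0.100, edgeR adjusted p = 7.01e-08, 0.97 with limma). In sucrose metabolism and sugar transport 4 of 38 rose and 5 fell (median -0.08). The vacuolar invertase *ivr2* (GRMZM2G089836), which splits sucrose, was at 292 and 265 in the normal and 1103 and 980.4 CPM in the drought libraries (log2 fold change 1.90, SE 0.077, edgeR adjusted p = 1.3e-10). The sucrose-making *sps1* (GRMZM5G875238), with the most reads of the list, was at 2039 and 1979.6 in the normal and 982 and 935 CPM in the drought libraries (log2 fold change -1.07, SE 0.052, edgeR adjusted p = 8.27e-10). *Sus2* (GRMZM2G318780), a sucrose synthase that mainly cleaves sucrose, was at 42.5 and 38.6 against 10.9 and 9.45 CPM (log2 fold change -2.0, SE 0.090, edgeR adjusted p = 3.82e-10). Each was apart in the 2 conditions.

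Nitrogen assimilation had 8 of 27 genes risen and 5 fallen (median 0.14), with asparagine synthetases in opposite directions. Asparagine synthetase 3 (GRMZM2G053669) was at 0.805 and 0.761 in the normal and 81.2 and 75.5 CPM in the drought libraries (log2 fold change 6.63, SE 0.13, edgeR adjusted p = 2.07e-13). Another asparagine synthetase (GRMZM2G078472) was at 119.6 and 112 in the normal and 16.4 and 15.1 CPM in the drought libraries (log2 fold change -2.88, SE 0.081, edgeR adjusted p = 3.85e-12), without overlap in either gene. Nitrate reductase (GRMZM2G568636), the entry step of nitrate assimilation, was at 1374 and 1351 against 579 and 547 CPM (log2 fold change -1.28, SE 0.051, edgeR adjusted p = 1.24e-10), lower under drought, whereas nitrite reductase (GRMZM2G079381), the next step, was at 268 and 264 against 623 and 579 CPM (log2 fold change 1.18, SE 0.063, edgeR adjusted p = 2e-09), higher. The glutamine synthetase gene *gs1-4* (GRMZM2G036464) was at 117 and 118 against 299 and 308 CPM (log2 fold change 1.37, SE 0.056, edgeR adjusted p = 1.31e-10).

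Peroxidases of class III, secreted enzymes of the cell wall, had 17 of 33 tested genes risen (51.5%) and 6 fallen (median 1.16), and 33 of 65 in the files passed the filter. The one with the most reads (GRMZM2G394500) was at 73.2 and 72.8 in the normal and 644 and 614 CPM in the drought libraries (log2 fold change 3.11, SE 0.071, edgeR adjusted p = 6.79e-13). Peroxidase R11 (GRMZM2G130904) was at 1.14 and 0.930 in the normal and 31.1 and 35.0 CPM in the drought libraries (log2 fold change 4.99, SE 0.13, edgeR adjusted p = 2.47e-12), and peroxidase 39 (GRMZM2G085967) at 10.6 and 10.4 against 82.9 and 81.3 CPM (log2 fold change 2.97, SE 0.073, edgeR adjusted p = 1.23e-12). A peroxidase 43-like gene (GRMZM2G081928) moved the other way, at 15.7 and 17.9 against 0.422 and 0.324 CPM (log2 fold change -5.47, SE 0.24, edgeR adjusted p = 3.17e-10). The list took 0.0365% and 0.0365% in the normal and 0.0992% and 0.0988% in the drought libraries of summed FPKM. Glutathione S-transferases, which conjugate toxic compounds, had 19 of 43 risen (44.2%) and 5 fallen (median 0.67). A theta-class gene (GRMZM2G077183) was at 3.43 and 3.09 in the normal and 51.5 and 54.0 CPM in the drought libraries (log2 fold change 4.01, SE 0.093, edgeR adjusted p = 6.99e-13). *Gst1* (GRMZM2G116273) was at 207 and 209 against 641 and 672 CPM (log2 fold change 1.66, SE 0.056, edgeR adjusted p = 2.12e-11). *Gst4* (GRMZM2G132093) was at 47.8 and 47.1 against 21.8 and 23.2 CPM (log2 fold change -1.08, SE 0.078, edgeR adjusted p = 4.17e-08). The first pair was higher in both drought libraries and *gst4* lower.

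Intracellular antioxidant enzymes were balanced by contrast, 5 risen and 5 fallen of 26 (median 0.19), with 3 risen without normal library 2 or with library size alone. A chloroplast copper-zinc superoxide dismutase (GRMZM2G106928) was at 52.4 and 50.8 in the normal and 144 and 155 CPM in the drought libraries (log2 fold change 1.53, SE 0.063, edgeR adjusted p = 1.45e-10). Catalase 3 (GRMZM2G079348), with the most reads, was at 369.7 and 376 against 509 and 508 CPM (log2 fold change 0.45, SE 0.053, edgeR adjusted p = 5.27e-06). Alternative oxidase *AOX1* (AC233960.1_FG002), a mitochondrial bypass of respiration, was at 51.9 and 55.2 in the normal and 0.750 and 0.787 CPM in the drought libraries (log2 fold change -6.11, SE 0.13, edgeR adjusted p = 3.18e-13), near absence in both drought libraries. Cytochrome P450 genes had 40 of 130 risen and 23 fallen (median 0.24). The largest rise by the naming rule (GRMZM2G009232) was at 0.805 and 0.846 in the normal and 32.6 and 36.2 CPM in the drought libraries (log2 fold change 5.37, SE 0.13, edgeR adjusted p = 1.23e-12). The largest fall (GRMZM2G012865) was at 23.4 and 23.5 against 0.0469 and 0.185 CPM (log2 fold change -7.58, SE 0.22, edgeR adjusted p = 1.82e-11). *BX5* (GRMZM2G063756), of benzoxazinoid synthesis, was at 444 and 432 against 1178 and 1172 CPM (log2 fold change 1.42, SE 0.055, edgeR adjusted p = 7.46e-11).

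Cell wall enzymes rose more often than they fell with edgeR, but with limma as many cellulose synthases rose as fell (2 and 2). Of 23 expansins and xyloglucan endotransglucosylase/hydrolases (XTH), which loosen and re-join wall polymers, 8 rose and 3 fell (median 0.42). *XTH32* (GRMZM2G113761) was at 13.1 and 15.2 in the normal and 245 and 234 CPM in the drought libraries (log2 fold change 4.08, SE 0.087, edgeR adjusted p = 3.33e-13). An expansin-like A1 gene (GRMZM2G127072) was at 32.2 and 29.5 against 10.1 and 11.02 CPM (log2 fold change -1.55, SE 0.098, edgeR adjusted p = 1.07e-08). Cellulose synthases had 6 of 23 risen and 4 fallen (median 0.28), among them *CesA7* (GRMZM2G025231) at 99.2 and 96.3 against 283 and 283 CPM (log2 fold change 1.53, SE 0.065, edgeR adjusted p = 2.01e-10). Pectin enzymes had 6 of 24 risen and 1 fallen (median 0.41), but 4 and 0 with DESeq2 and 0 and 0 with limma. On the leaf surface, 10 of 22 wax, cutin and lipid-transfer genes rose and 3 fell (median 0.74). A nonspecific lipid-transfer protein (GRMZM2G387360), a carrier of wall lipids, was at 1.40 and 1.65 in the normal and 35.2 and 28.6 CPM in the drought libraries (log2 fold change 4.38, SE 0.16, edgeR adjusted p = 3.8e-11). Another (GRMZM2G004909) was at 80.4 and 80.8 against 6.66 and 4.77 CPM (log2 fold change -3.82, SE 0.12, edgeR adjusted p = 1.04e-11). The wax gene *glossy2* (GRMZM2G098239) was at 86.3 and 85.8 against 186 and 188 CPM (log2 fold change 1.12, SE 0.062, edgeR adjusted p = 2.89e-09). *Glossy1* (GRMZM2G114642) was at 460.4 and 456 against 218 and 205 CPM (log2 fold change -1.12, SE 0.059, edgeR adjusted p = 1.93e-09), in opposite directions. Although more members rose than fell, the summed FPKM of this list was lower under drought, 0.390% and 0.405% in the normal and 0.275% and 0.270% in the drought libraries.

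Phenylpropanoid and flavonoid enzymes had 26 of 72 risen and 14 fallen (median 0.31). A flavonoid 3'-monooxygenase-like P450, *CYP92C5* (GRMZM2G102079), was at 34.3 and 34.0 in the normal and 262 and 246 CPM in the drought libraries (log2 fold change 2.90, SE 0.071, edgeR adjusted p = 1.1e-12). A gene described as dihydroflavonol-4-reductase (GRMZM2G107076), an enzyme class of anthocyanin synthesis, was at 55.2 and 55.2 in the normal and 0.0938 and 0.232 CPM in the drought libraries (log2 fold change -8.35, SE 0.21, edgeR adjusted p = 1.58e-12). The member with the most reads (GRMZM2G131205), named cinnamoyl-CoA reductase of lignin synthesis in RefSeq, was at 641 and 628 against 262 and 249.6 CPM (log2 fold change -1.31, SE 0.069, edgeR adjusted p = 1.73e-09). The last pair was lower in both drought libraries. Defence proteins of the chitinase, glucanase and pathogenesis-related (PR) kinds had 21 of 62 risen and 7 fallen (median 0.56). A beta-1,3-glucanase (GRMZM2G012140) was at 9.11 and 8.71 in the normal and 27.7 and 29.1 CPM in the drought libraries (log2 fold change 1.67, SE 0.090, edgeR adjusted p = 2.21e-09). *PR-1* (GRMZM2G465226), a marker of salicylate-type defence in other plants, was at 64.6 and 70.0 against 10.8 and 13.99 CPM (log2 fold change -2.44, SE 0.097, edgeR adjusted p = 1.06e-10).

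Protease inhibitors and genes of the benzoxazinoids, the indole-derived defence compounds of grasses, had 11 of 23 risen (47.8%) and 2 fallen (median 0.93). A Bowman-Birk trypsin inhibitor (GRMZM2G447785) was at 0.763 and 0.761 in the normal and 222 and 234 CPM in the drought libraries (log2 fold change 8.21, SE 0.11, edgeR adjusted p = 2.41e-14). In normal leaves it was thus close to absence, and in drought leaves it was well above that in both libraries. A sister gene (GRMZM2G007928) was at 102 and 105 against 51.6 and 48.2 CPM (log2 fold change -1.05, SE 0.060, edgeR adjusted p = 3.49e-09). The cystatin *cpi2* (GRMZM2G012160), an inhibitor of cysteine proteases, was at 77.6 and 85.7 against 377 and 395 CPM (log2 fold change 2.24, SE 0.065, edgeR adjusted p = 4.87e-12). Along the benzoxazinoid pathway the entry enzyme *bx1* (GRMZM2G085381), with the most reads of the list, was at 1491 and 1547 against 2862 and 2907 CPM (log2 fold change 0.93, SE 0.049, edgeR adjusted p = 1.76e-09), short of the limit. The next enzyme *bx2* (GRMZM2G085661) was at 15.2 and 14.4 in the normal and 214 and 219 CPM in the drought libraries (log2 fold change 3.87, SE 0.068, edgeR adjusted p = 8.27e-14). For *bx3* (GRMZM2G167549) the values were 246 and 244 against 535 and 518 CPM (log2 fold change 1.10, SE 0.057, edgeR adjusted p = 1.39e-09). Those of *bx6* (GRMZM6G617209) were 157 and 170.5 against 926 and 969 CPM (log2 fold change 2.53, SE 0.061, edgeR adjusted p = 1.02e-12). *Bx8* (GRMZM2G085054) was at 149.9 and 148 against 299 and 306 CPM (log2 fold change 1.02, SE 0.069, edgeR adjusted p = 2.07e-08). *Bx2*, *bx3*, the dioxygenase *bx6* and the glucosyltransferase *bx8* rose, while a second glucosyltransferase, *bx9* (GRMZM2G161335), was at 176 and 174 against 209 and 206 CPM (log2 fold change 0.24, SE 0.059, edgeR adjusted p = 0.00235). The list took 0.311% and 0.320% in the normal and 0.595% and 0.612% in the drought libraries of summed FPKM.

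Of 180 tested cytosolic ribosomal protein genes 85 rose (47.2%) and 6 fell, with a median of 0.98, and 63 rose with library size alone. Their share of summed FPKM was 0.457% and 0.465% in the normal and 0.743% and 0.780% in the drought libraries. *L31* (GRMZM2G158568), of the large subunit, was at 12.3 and 12.5 in the normal and 79.6 and 82.5 CPM in the drought libraries (log2 fold change 2.71, SE 0.068, edgeR adjusted p = 1.41e-12). The member with the most reads, *P2B* of the ribosomal stalk (GRMZM2G114954), was at 148 and 161 against 101 and 111 CPM (log2 fold change -0.54, SE 0.069, edgeR adjusted p = 1.09e-05), lower in both drought libraries and within the limit, and *L39* (GRMZM2G048561) fell, at 21.2 and 20.2 against 10.6 and 9.26 CPM (log2 fold change -1.06, SE 0.099, edgeR adjusted p = 5.33e-07), with -0.96 without drought library 2. Ribosomal protein genes are short and have near-identical copies, so the share of single copies is uncertain. Across all genes the drought difference varied with transcript length, from a median of 0.25 in the shortest of 5 length classes of equal size to -0.32 in the longest. Of the 180 ribosomal genes 110 were in the shortest class. Within the 4 shorter classes the ribosomal medians were 1.0, 0.84, 1.43 and 0.83, beside 0.25, 0.14, 0.05 and -0.03 for all genes of the same classes, and in the longest class the 2 ribosomal genes had a median of -0.49 beside -0.32. The part of length in these differences was not tested further. The summed level of the markers of dividing cells was also higher, as given above, and 3 of their 6 tested genes passed, *PCNA1* (GRMZM2G030523), *HB110* (GRMZM2G061101) and *MCM3* (GRMZM2G100639). Only 2 passed with library size alone and 1 with limma. Larger lists were balanced, with 5 of 45 cell cycle and DNA replication genes risen and 5 fallen (median -0.10). The GO process DNA replication had 11 of 53 risen and 9 fallen (median -0.30). The part of dividing cells in the ribosomal change was not tested.

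**Figure D4:**
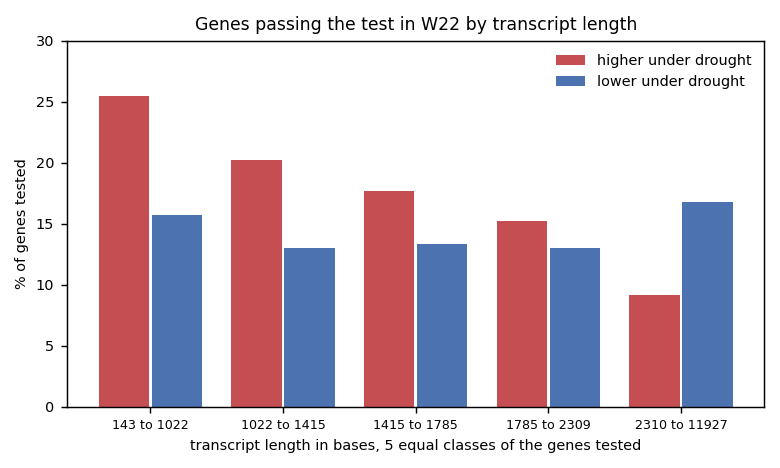
Percent of W22 genes that rose (red) or fell (blue) under drought in 5 equal classes of the tested genes by transcript length in bases. The share that rose goes down from 25.5% of the shortest to 9.13% of the longest class, while the share that fell is 15.7%, 13.0%, 13.3%, 13.0% and 16.8%.

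Other genes of growth and protein turnover were split between rises and falls. Cell cycle and DNA replication genes had 5 of 45 risen and 5 fallen (median -0.10), 3 fallen with DESeq2 or without drought library 1 or normal library 2 and 8 with library size alone. Histones had 5 of 41 risen and 7 fallen (median -0.04), with the linker histone H1 (GRMZM2G080274) at 109 and 109 against 44.5 and 45.2 CPM (log2 fold change -1.28, SE 0.065, edgeR adjusted p = 1.11e-09). A histone H3 (GRMZM2G145758) was at 26.5 and 26.1 against 61.2 and 66.4 CPM (log2 fold change 1.28, SE 0.066, edgeR adjusted p = 1.52e-09). Proteasome subunits had 4 of 41 risen and 4 fallen (median 0.14), among them the beta type-6 subunit (GRMZM2G152775) at 30.8 and 31.1 against 86.7 and 95.4 CPM (log2 fold change 1.56, SE 0.067, edgeR adjusted p = 2.43e-10). Autophagy and senescence genes had 13 of 52 risen and 11 fallen (median 0.12, -0.02 with library size alone). A senescence-associated gene (GRMZM2G041175) was at 35.3 and 33.6 in the normal and 195 and 176 CPM in the drought libraries (log2 fold change 2.43, SE 0.093, edgeR adjusted p = 7.43e-11). A metacaspase (GRMZM2G132238), a cysteine protease of cell death in plants, was at 118 and 119 against 21.3 and 20.9 CPM (log2 fold change -2.49, SE 0.071, edgeR adjusted p = 4.21e-12). The metacaspase with the most reads (GRMZM2G120079) was at 930.2 and 906 against 1946 and 1867 CPM (log2 fold change 1.05, SE 0.058, edgeR adjusted p = 2.73e-09), a rise of 0.91 with library size alone or limma.

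Of 77 calcium-dependent and CBL-interacting kinases 23 fell (29.9%) and 9 rose (median -0.26). A CBL-interacting kinase (GRMZM2G125001), which relays calcium signals from calcineurin B-like sensors, was at 20.8 and 19.3 in the normal and 0.188 and 0.0926 CPM in the drought libraries (log2 fold change -7.11, SE 0.22, edgeR adjusted p = 1.08e-11). *CIPK11* by its description (GRMZM2G177050) was at 39.9 and 39.6 in the normal and 163 and 157 CPM in the drought libraries (log2 fold change 2.01, SE 0.088, edgeR adjusted p = 2.77e-10). The one with the most reads (GRMZM2G170120) was at 1070.1 and 1048 against 831 and 864 CPM (log2 fold change -0.32, SE 0.049, edgeR adjusted p = 5.78e-05). Calmodulin and other calcium-binding proteins had 3 of 21 risen and 2 fallen (median 0.19). An EF-hand gene (GRMZM2G436947) was at 0.297 and 0.211 in the normal and 69.7 and 69.1 CPM in the drought libraries (log2 fold change 8.06, SE 0.13, edgeR adjusted p = 7.06e-14). Receptor kinases, the largest list, had 78 of 365 risen (21.4%) and 79 fallen (21.6%), with a median of -0.02.

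Among the GO processes translation had 143 of 510 tested genes risen and 38 fallen (median 0.57), ribosome biogenesis 13 of 44 and 2 (median 0.45, with 1 fallen with DESeq2 or without drought library 1 or normal library 1), and chlorophyll synthesis 10 of 31 and 1 (median 0.70). Response to wounding had 12 of 39 risen and 3 fallen (median 0.38), with 5 fallen without drought library 2 and 6 with library size alone. Defence response had 45 of 153 risen and 30 fallen (median 0.23), and its largest rise by the naming rule was a ribosome-inactivating protein, *rip2* (GRMZM2G119705), at 3.26 and 3.47 in the normal and 76.4 and 84.5 CPM in the drought libraries (log2 fold change 4.58, SE 0.099, edgeR adjusted p = 3.83e-13). Response to water deprivation had 7 of 40 risen (17.5%) and 3 fallen (7.50%, median 0.11, -0.04 with library size alone), and response to ABA had 9 of 54 risen (16.7%) and 6 fallen (11.1%, median 0.16, 3 fallen without drought library 2). In the first of these the gene with the largest rise was *pgd3* (GRMZM2G440208), a plastid 6-phosphogluconate dehydrogenase, at 10.04 and 8.80 against 36.0 and 31.4 CPM (log2 fold change 1.84, SE 0.10, edgeR adjusted p = 2.76e-09). Their shares of risen genes were at or near the 17.5% of all genes. Response to salt stress had 11 of 69 risen and 9 fallen, with S-adenosylmethionine synthase (GRMZM2G054123), the methyl donor enzyme, at 234.6 and 233 in the normal and 932 and 908 CPM in the drought libraries (log2 fold change 1.97, SE 0.054, edgeR adjusted p = 3.38e-12). For oxidative stress 40 of 124 genes rose (32.3%) and 13 fell (median 0.14, -0.01 with library size alone). On the falling side the highest share was in response to cold, 9 of 34 (26.5%) with 4 risen. There 7 fell with DESeq2 and 4 with limma. Protein phosphorylation had 169 of 907 (18.6%) fallen and 136 risen (median -0.17), transmembrane transport 74 of 327 (22.6%) and 52, microtubule-based movement 14 of 63 (22.2%) and 10, and response to heat 14 of 69 (20.3%) and 10.

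Clock genes, a list added after values had been seen, had none of 15 risen with edgeR, DESeq2 or limma (2 higher at an unadjusted p below 0.05) and 1 fallen, 2 with DESeq2, factors of the relative log expression (RLE) type or library size alone, or without drought library 2 or normal library 1 (median -0.16). The fallen gene was *LHY* (GRMZM2G014902), a morning-phased MYB-like factor, at 545 and 557 in the normal and 182 and 184 CPM in the drought libraries (log2 fold change -1.59, SE 0.063, edgeR adjusted p = 1.13e-10). A second *LHY* gene (GRMZM2G474769) was at 212 and 203 against 165 and 174 CPM (log2 fold change -0.29, SE 0.066, edgeR adjusted p = 0.00156). *Gigantea1A* (GRMZM2G107101), an evening gene, was at 140.5 and 144 against 155 and 161 CPM (log2 fold change 0.15, SE 0.071, edgeR adjusted p = 0.0696). The hour of sampling of each group was not given in the sources used here.

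Some genes were present in one condition and at or below 3 counts per library in the other. In W22, 50 genes with at least 200 counts in each normal library were at that floor in both drought libraries, and 32 showed the reverse. Reads of near-identical gene models can be assigned to one copy or another, and how far this bears on these genes was not tested, so an empty gene model is not shown to be a silent gene. Of the 50 genes at the floor under drought, 40 were also at the floor in the drought libraries of zmnf-ya1 and 28 in those of DH4866, 24 in both, while 12 had at least 200 counts in the drought libraries of DH4866. Of the 32 genes at the floor in normal leaves, 10 were also at the floor in the normal libraries of zmnf-ya1 and 15 in those of DH4866, 5 in both, and 12 were at the floor in neither. Among genes with a mean of at least 10 CPM whose conditions did not overlap, the 5 largest falls were from between 28.6 and 57.0 CPM to no count. They were GRMZM2G134020 (at least 399-fold lower), GRMZM2G404025 (at least 327-fold lower), GRMZM2G115077 (at least 242-fold lower), AC200209.1_FG001 (at least 217-fold lower) and GRMZM2G320152 (at least 209.7-fold lower). By description GRMZM2G404025 is a chloroplast sequence for a subunit of the NADH-plastoquinone oxidoreductase, and whether its reads came from nuclear or plastid transcripts was not tested. GRMZM2G115077 is described as a solanesyl-diphosphate synthase, which makes the plastoquinone side chain, and the others carry no informative description. Of the 5 largest rises by the same rule, 4 were the dnaJ and NAC genes given above, GRMZM2G422175 (at least 192-fold higher) and GRMZM2G063632 (at least 167-fold higher), all with no count in normal leaves. The other, GRMZM2G035726, had 0 and 3 counts in the normal libraries and 64.3 and 67.1 CPM under drought, a ratio of 1035 (95% exact counting interval 354 to 5022).

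The W22 response was then set beside those of zmnf-ya1 and DH4866, in fits with the interaction of line and condition over 8 libraries each. The response differed from that of zmnf-ya1 in 3417 of 24159 genes (14.1%), being higher in W22 in 2180 (9.02%) and lower in 1237 (5.12%). That direction depended on scaling, since with library size alone 4335 differed, 1278 higher and 3057 lower, so 63.8% were higher with TMM and 29.5% without it, and the median difference of all genes went from 0.054 to -0.311. Against DH4866 4616 of 24634 genes differed (18.7%), 2466 higher (10%) and 2150 lower (8.73%), or 2135 and 2587 with library size alone. Both comparisons use the same 4 W22 libraries. The study's RNA-seq methods do not describe the DH4866 libraries, so inbred line, growing batch and severity of drought cannot be told apart in that comparison.

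Jasmonate genes had a higher response in W22 than in zmnf-ya1, 24 of 41 genes higher and 0 lower, 19 and 0 with library size alone, and the median response was 1.21 in W22 and -0.55 in the mutant. Against DH4866, with a median of 0.61, the same list was mixed, 8 of 41 genes higher and 7 lower, 4 and 7 with library size alone. *Lox10* (GRMZM2G015419) had a log2 fold change of 1.22 in W22, 0.08 in zmnf-ya1 and 0.26 in DH4866, and the W22 response was above that of zmnf-ya1 by 1.14 (SE 0.063, edgeR adjusted p = 2.63e-08). Jasmonate O-methyltransferase (GRMZM2G050307) had 3.63 in W22, 1.95 in zmnf-ya1 and 3.25 in DH4866, with a difference from zmnf-ya1 of 1.68 (SE 0.092, edgeR adjusted p = 2.66e-08). Protease inhibitors and benzoxazinoid genes were likewise higher in W22 than in zmnf-ya1, 12 of 23 genes higher and 0 lower, 9 and 0 with library size alone, but against DH4866 they stood with 1 of 23 genes higher and 7 lower, 1 and 7 with library size alone. The direction of the jasmonate and protease inhibitor differences from zmnf-ya1 was therefore the same under both scalings. Jasmonate O-methyltransferase was named for its rise in W22, and several lists compared here and below stood out by their W22 response. The same W22 libraries enter the comparison, so this choice favours a higher response in W22.

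Light-harvesting genes had medians of 0.36 in W22, -0.51 in zmnf-ya1 and 0.14 in DH4866, and the difference from zmnf-ya1 had 20 of 60 genes higher and 0 lower, 4 and 2 with library size alone. Cytosolic ribosomal proteins had medians of 0.98, 0.33 and 0.31, with 27 of 180 genes higher and 0 lower, 6 and 1 with library size alone against zmnf-ya1 and 35 of 180 genes higher and 3 lower, 27 and 3 with library size alone against DH4866. For both lists fewer genes were called higher against zmnf-ya1 with library size alone. AP2/ERF factors had 32 of 108 genes higher and 4 lower, 26 and 6 with library size alone against zmnf-ya1, and glutathione S-transferases 17 of 43 genes higher and 0 lower, 7 and 0 with library size alone. Chitinase, glucanase and PR proteins had 21 of 62 genes higher and 0 lower, 13 and 1 with library size alone. LEA genes had medians of 0.83, -0.44 and -0.52, with 4 of 11 genes higher and 0 lower, 3 and 0 with library size alone against zmnf-ya1 and 5 of 11 genes higher and 0 lower, 5 and 0 with library size alone against DH4866. *Mlg3* (GRMZM2G096475) was at the floor in normal W22 leaves, so no fold is compared for it. Starch genes, with medians of -0.36, -0.36 and -0.42, had 3 of 29 genes higher and 1 lower, 2 and 7 with library size alone against zmnf-ya1 and 3 of 29 genes higher and 3 lower, 3 and 3 with library size alone against DH4866. Among them the beta-amylase GRMZM5G803981 had -2.40 in W22, -1.85 in zmnf-ya1 and 0.62 in DH4866, a difference from DH4866 of -3.03 (SE 0.077, edgeR adjusted p = 2.94e-12). C4 cycle genes had medians of -0.23, -0.25 and -0.19, with 2 of 14 genes higher and 1 lower, 1 and 1 with library size alone against zmnf-ya1 and 0 of 14 genes higher and 1 lower, 0 and 1 with library size alone against DH4866.

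**Figure D5:**
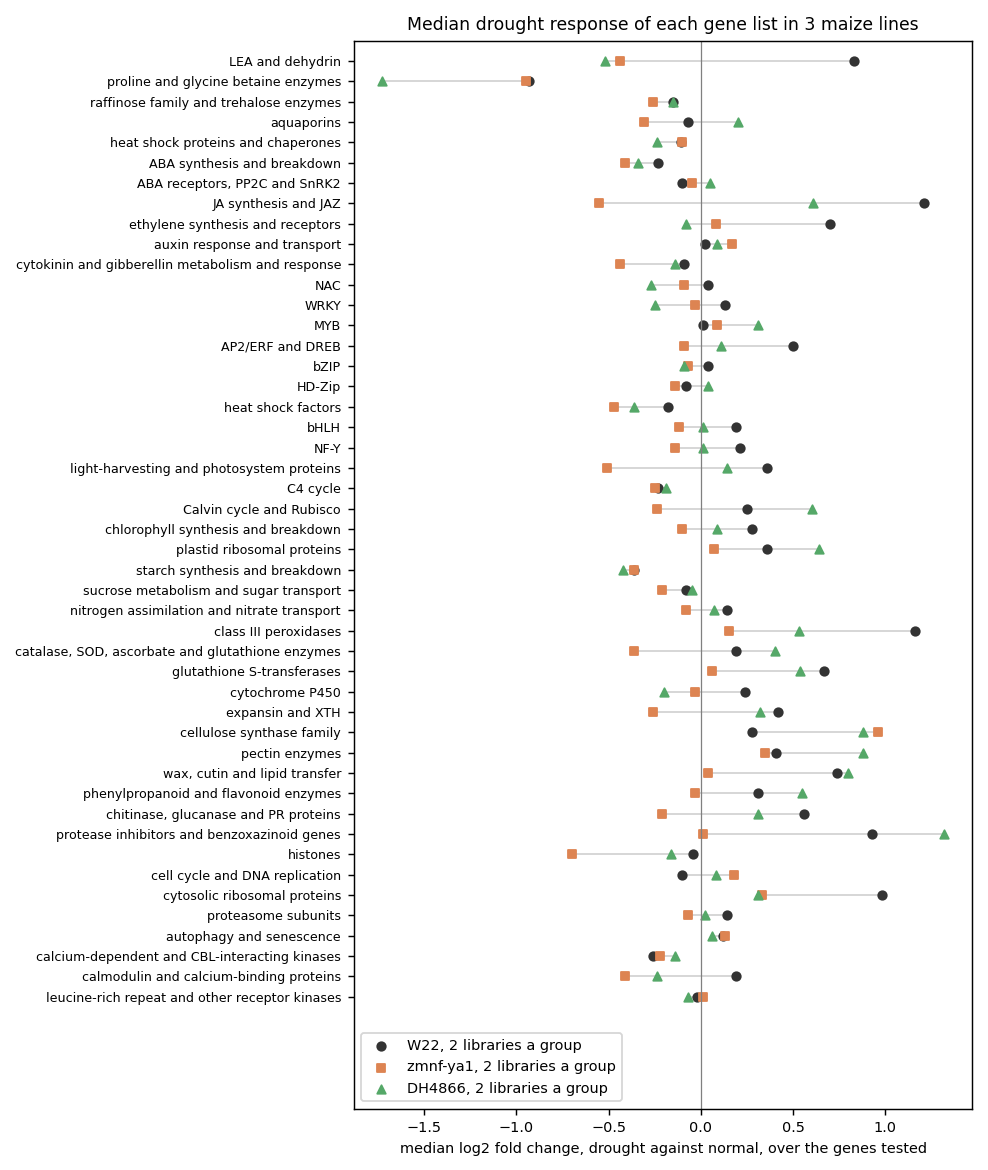
Median log2 fold change, drought against normal, over the tested genes of each list in W22 (black circles), zmnf-ya1 (orange squares) and DH4866 (green triangles), 2 libraries per condition in each line. Jasmonate genes lie at 1.21 in W22, -0.55 in zmnf-ya1 and 0.61 in DH4866, while starch genes lie between -0.42 and -0.36.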

How the data were processed

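RNA-seq of maize leaf was analysed from the tables the authors deposited, which hold RSEM expected counts and FPKM (fragments scaled to transcript length and library total) for each gene and library. The study's methods say that low-quality reads were removed with SOAPnuke, clean reads were mapped with Bowtie2 and genes of the maize V3 gene models were quantified with RSEM. Genes under 0.01 FPKM in a library are not listed in its table and were taken as 0. The authors deposited the expected counts per library without normalization, and they were rounded to whole numbers here.

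Of 12 libraries used, 4 were W22, and W22 and zmnf-ya1 (8 libraries, 4 groups) shared 1 fit with edgeR's filterByExpr, TMM and quasi-likelihood test, with Benjamini-Hochberg adjustment over 24159 genes, a limit of 1 on the absolute log2 fold change and 0.05 on the adjusted p. DH4866 was fitted with W22 in the same way. Gene lists came from the protein descriptions and GO terms in the tables (13363 of 32507 genes had an informative description and 16220 a GO process), and 18282 of 34699 gene IDs matched RefSeq (assembly Zm-B73-REFERENCE-NAM-5.0, used for symbols only). The members and lists were chosen with earlier results of these data known. In each list the called gene with the largest rise and that with the largest fall were named, among genes whose conditions did not overlap and whose mean was at least 10 CPM, with the gene of the highest mean CPM, by the same limits the 5 largest rises and falls over all genes and 3 NF-Y genes of the study. Genes with 0 counts in one condition are given as a bound against 3 counts per library, and those with 1 to 3 counts as a ratio with an exact 95% interval that covers counting error only. List medians were the same with these genes at their bounds.

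The biological coefficient of variation was 5.288%, and the chi-square per degree of freedom between replicates was 2.191 (normal) and 2.779 (drought), more than counting noise. This does not show that the pools were independent plants grown apart. Each library was counted as a sample of its own. An exact permutation test of 2 against 2 libraries cannot give a two-sided p below 0.333. Counts of 23212 genes were simulated for the W22 comparison. In them edgeR recovered 100 of 100 genes changed by a log2 of 2 and 100 of 100 by 1.5, with 1 false call. Both folds lie above the limit of 1, and only 200 genes were changed. Folds nearer that limit, and a share of changed genes as large as the 31.9% in W22, were not tested. This recovery is therefore not a check of the 7705 calls. Alternatives were DESeq2, limma on log2(FPKM + 1), size factors of the relative log expression (RLE) type, library size alone, no filter, the 4 W22 libraries alone, a replicate block, an adjusted p of 0.001 and leaving out each library. Tools were R 4.3.3, edgeR 4.0.16, limma 3.58.1, DESeq2 1.42.0, Python 3.11.15, numpy 2.4.6, pandas 2.3.3, scipy 1.17.1 and matplotlib 3.10.9.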

Additional observations from a re-analysis of the deposited data

Results flagged for a closer look

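These genes and counts were picked out because the drought response of W22 differed from that of another line by a test of the interaction, and, for the single genes, because the gene was called in both lines in opposite directions. Genes at the floor in a W22 condition are not listed below. Among them GRMZM2G404025, with no count in W22 under drought, rose in zmnf-ya1 (log2 fold change 8.29, SE 3.09, edgeR adjusted p = 0.0384) and in DH4866 (4.25, SE 0.57, edgeR adjusted p = 2.36e-05). GRMZM2G320152, also with no count there, rose in DH4866 (1.49, SE 0.087, edgeR adjusted p = 7.07e-09). The response differed in 3417 genes between W22 and zmnf-ya1 and in 4616 between W22 and DH4866.

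*Lox3* (GRMZM2G109130), a 9-lipoxygenase, had log2 fold changes of -4.46 in W22, -4.58 in zmnf-ya1 and 1.59 in DH4866, a difference from DH4866 of -6.05 (SE 0.18, edgeR adjusted p = 1.05e-11). The ACC oxidase GRMZM2G166639 had 1.43 in W22, -0.08 in zmnf-ya1 and -1.89 in DH4866, a difference from DH4866 of 3.31 (SE 0.100, edgeR adjusted p = 1.16e-11). For *bHLH116* (GRMZM2G042895) they were 3.48 in W22, -1.20 in zmnf-ya1 and 2.31 in DH4866, a difference from zmnf-ya1 of 4.68 (SE 0.097, edgeR adjusted p = 3.52e-12). In the plastid ribosomal protein S7 gene GRMZM5G844628 they were 2.16 in W22, -4.07 in zmnf-ya1 and 2.2 in DH4866, a difference from zmnf-ya1 of 6.22 (SE 1.05, edgeR adjusted p = 0.000411). Its W22 libraries were at 8.18 and 0 in the normal and 22.9 and 13.6 CPM in the drought libraries, so that the normal libraries disagree, and the W22 rise was not called with DESeq2, without a filter, or without drought library 1 or normal library 2. GRMZM2G474534, described as a plastid NAD(P)H-quinone oxidoreductase subunit, had -3.35 in W22, 1.38 in zmnf-ya1 and 1.48 in DH4866, with differences of -4.74 (SE 0.39, edgeR adjusted p = 1.02e-06) from zmnf-ya1 and -4.83 (SE 0.14, edgeR adjusted p = 7.84e-12) from DH4866. Whether reads of GRMZM2G474534 and the S7 gene came from nuclear or plastid transcripts was not tested. A peptidyl-prolyl isomerase (GRMZM2G162388), which assists protein folding, had -4.90 in W22, -4.90 in zmnf-ya1 and 3.53 in DH4866, a difference from DH4866 of -8.43 (SE 0.082, edgeR adjusted p = 1e-16). The inactive beta-glucosidase 14 gene GRMZM5G845736 had -3.29 in W22, -4.10 in zmnf-ya1 and 1.5 in DH4866, a difference from DH4866 of -4.79 (SE 0.19, edgeR adjusted p = 1.82e-10). Ferredoxin-6 (GRMZM2G106190), an electron carrier of the plastid, had 1.24 in W22, 0.57 in zmnf-ya1 and -1.30 in DH4866, a difference from DH4866 of 2.53 (SE 0.11, edgeR adjusted p = 3.93e-10).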

How the results depend on the processing

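The count of changed genes in W22 was 7705 (4238 higher, 3467 lower), and 6757 with DESeq2, 7703 with RLE factors, 7875 (3673 higher, 4202 lower) with library size alone, 8330 without a filter, 7426 with the 4 W22 libraries alone and 7542 to 7660 without 1 library (4101 to 4211 higher, 3398 to 3449 lower). Limma on log2(FPKM + 1) gave 4122 (2072 higher, 2050 lower), of which 4000 were among the 7705 (51.9%), and the added 1 on FPKM shrinks the change of low genes. At 17203 genes the unadjusted p was below 0.05. Of the differences from zmnf-ya1 (3417), DESeq2 called 2210 (751 lower), library size alone 1278 higher and 3057 lower, and leaving out 1 library 3126 to 3147 (1992 to 2024 higher, 1111 to 1155 lower), while those from DH4866 (4616) were 4344 to 4422 (2239 to 2402 higher, 2011 to 2114 lower). A replicate block gave 7610 (4189 higher, 3421 lower), 3310 and 4533 genes, but no source states that replicate numbers pair samples, and with 2 pairs the correlation of their deviations was 0.193 over 9507 genes. Over 196 named genes and all settings 2329 of 2352 values kept their direction and side of the limit, 15 lost the call and 8 gained it, and none reversed. Of 1992 counts for lists 154 moved by over 1.5 times, 85 of them with limma. The cause of these shifts was not tested. Genes at or below 3 counts in a library (0.127 to 0.141 CPM) cannot be told from absent at this depth.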
